A study of Homo sapiens with 9 samples.

Results

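Replication-dependent histone genes are the multicopy genes that supply histone protein for newly made DNA. They were taken here as every array row with a single gene symbol that was H1-1 to H1-6, or H2AC, H2BC, H3C or H4C followed by a number, with 1 row per symbol. This gave 50 genes of 22011 measured rows (transcript clusters, each the summed probes of a gene). Of the 50, 6 encode linker histone H1 and 44 encode core histones, made up of 11 H2A, 13 H2B, 9 H3 and 11 H4 genes. By the RefSeq gene table, 45 of the genes lie on chromosome 6, 4 on chromosome 1 (H2AC21, H2AC25, H2BC21 and H2BC26) and 1 on chromosome 12 (H4C16). A further 3 rows carry the symbols of several histone genes each and were left out of the 50.

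The cells were GM12878, 1 B-lymphoblastoid line made from human B lymphocytes with Epstein-Barr virus, so the groups are cultures of a single genotype. Every culture was grown in RPMI 1640 with 15% fetal bovine serum. The 3 groups of 3 arrays were untreated cells taken at 0 h, cells given 10 µM D,L-sulforaphane for 8 h, and cells given the same dose for 24 h. Sulforaphane is an electrophilic isothiocyanate from cruciferous vegetables, known as an activator of the NRF2 antioxidant response. The treatment protocol in the labels also names a DMSO vehicle, but the untreated arrays are labelled as no treatment at 0 h and no vehicle array is among the 9. The effects of the compound, of the vehicle and of time in culture therefore cannot be told apart. Total RNA was labelled by a whole-transcript kit and read on Affymetrix Human Exon 1.0 ST arrays, 1 array per culture.

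In the nucleosome, DNA wraps around an octamer of the core histones H2A, H2B, H3 and H4, and linker histone H1 binds where the DNA enters and leaves. The genes of both classes are transcribed mainly in S phase, and their messages end in a conserved stem-loop in place of a poly(A) tail. The stem-loop is bound by SLBP, is cut with the help of the U7 particle, and marks the messages for decay when DNA synthesis stops. The genes of a core family have near-identical coding sequences, so the signal of a row may hold RNA from other copies, and a value for a single core gene is uncertain to that degree.

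Promoters of some of the genes on which the results turn are shown to let the families be compared, as each family carries its own elements. H1-4 and H1-1 are printed although they did not pass the test at 24 h given below. H2AC4 and H3C1 did pass it and are not printed. The promoters were read from the RefSeq promoter table (GRCh38.p14), which held 45 of the 50 genes. The capitals mark matches, on either strand, to 6 short elements. The binding site of the factor NF-Y is CCAAT. The octamer bound by the factor OCT1 is ATTTGCAT. The element named the H1 box is AAACACA, and the TATA box was searched for as TATAAA. The H4 element bound by HINFP holds the letters GGTCC, and an E2F-type site was searched for as TTTCGCGC. Each run holds the 150 bases before the start site, 5′ to 3′ on the strand of the gene.
H1-5 (chr6:27867589-27867738, minus): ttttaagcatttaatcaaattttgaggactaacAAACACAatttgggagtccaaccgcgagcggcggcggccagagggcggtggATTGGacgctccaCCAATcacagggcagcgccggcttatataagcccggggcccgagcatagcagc
H1-3 (chr6:26234988-26235137, minus): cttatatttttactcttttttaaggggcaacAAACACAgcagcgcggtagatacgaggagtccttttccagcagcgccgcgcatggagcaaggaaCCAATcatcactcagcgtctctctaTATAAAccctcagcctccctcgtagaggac
H1-4 (chr6:26156179-26156328, plus): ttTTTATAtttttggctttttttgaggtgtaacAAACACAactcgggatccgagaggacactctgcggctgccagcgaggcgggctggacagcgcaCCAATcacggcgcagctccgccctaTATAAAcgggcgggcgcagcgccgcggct
H1-1 (chr6:26017788-26017937, minus): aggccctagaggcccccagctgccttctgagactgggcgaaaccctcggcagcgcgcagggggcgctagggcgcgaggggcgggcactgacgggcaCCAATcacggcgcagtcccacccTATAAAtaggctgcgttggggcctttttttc
H2AC16 (chr6:27865167-27865316, plus): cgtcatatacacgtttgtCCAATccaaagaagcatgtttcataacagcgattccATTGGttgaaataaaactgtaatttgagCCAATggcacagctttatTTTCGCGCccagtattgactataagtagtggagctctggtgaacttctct
H2BC7 (chr6:26199366-26199515, plus): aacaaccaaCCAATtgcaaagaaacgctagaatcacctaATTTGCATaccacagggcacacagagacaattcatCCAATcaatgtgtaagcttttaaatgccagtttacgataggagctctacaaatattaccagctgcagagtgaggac
H3C3 (chr6:26045234-26045383, plus): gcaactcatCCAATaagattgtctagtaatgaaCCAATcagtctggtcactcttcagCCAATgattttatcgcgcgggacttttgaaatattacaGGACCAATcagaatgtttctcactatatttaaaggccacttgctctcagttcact
H4C16 (chr12:14771132-14771281, minus): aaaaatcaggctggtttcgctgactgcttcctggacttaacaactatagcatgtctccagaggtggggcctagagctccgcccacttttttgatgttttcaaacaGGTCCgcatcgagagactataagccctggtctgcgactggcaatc

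Over windows of 300 bases (250 before to 50 after the start), AAACACA was present in 6 of 6 H1 promoters and in no core promoter, against 5.76% of the 27305 genes in the table. In 5 of the 6 it lay on the gene's own strand with its first base at −119 to −105, counting the base before the start as −1, and H1-1 held only a match on the opposite strand further upstream. The printed runs of H1-5, H1-3 and H1-4 hold the element and that of H1-1 does not. ATTTGCAT was in 8 of 10 H2A and 10 of 13 H2B promoters and in none of the other families, against 1.8% of all genes. Paired H2A and H2B genes that lie head to head have starts 194 to 248 bases apart, so their windows overlap. A single site can then count in both families, as the ATTTGCAT of H2AC1 and H2BC1 did. The H2A and H2B counts of each element are therefore not independent. GGTCC was in 8 of 9 H4 promoters, on the gene's own strand at −46 to −44 in all 8, although the letters alone occurred in 46.1% of all genes. CCAAT was in every matched H1, H2A, H2B and H3 promoter and in 3 of 9 H4 promoters, against 35.7% of all genes. In H3C3 the H4 letters on the opposite strand overlap the CCAAT nearest the start. The TATA box letters were in 29 of 45 promoters against 12% of all genes, and the E2F-type letters in 7 of 45 against 0.546%. No printed core run holds the TATA box letters, but H2AC4 and H3C1, which are not printed, hold them at −30 and −29. The E2F-type count holds the same site for both genes of the pairs H2AC11 with H2BC11 and H2AC17 with H2BC17. A match to these letters is a description of the window and not a measured binding site.

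At 24 h, 8 of the 50 histone genes were lower than in untreated cells and none was higher, by limma with Benjamini-Hochberg adjustment over all rows. The 8 were the linker genes H1-5 and H1-3 and the core genes H2AC16, H2AC4, H2BC7, H3C1, H3C3 and H4C16, with falls between 2.24-fold (H1-5) and 1.30-fold (H4C16). Over all rows, 1.62% were called in this comparison in either direction and 0.791% were called lower. At 8 h none of the 50 was called, where 0.595% of all rows were, and 9 of the 50 (18%) had an unadjusted limma p below 0.05, a share near the 15.1% of all rows. Between 8 h and 24 h none was called either, where 0.327% of all rows were, and 21 (42%) had an unadjusted limma p below 0.05, against 10.4% of all rows. The F-test of any change among the 3 time points called 5 (H1-3, H1-5, H2AC16, H2BC7 and H3C1), against 1.35% of all rows. Because both treated groups were compared with the same untreated arrays, the 8 h and 24 h differences are not independent.

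The count at 24 h depended on single arrays, and so did the share of all rows called, 1.62% with all 9 arrays. That share is given in brackets for each fit. Leaving out untreated replicate 3 gave 0 (0.0954%), and so did leaving out 24 h replicate 2 (0.154%). Without 8 h replicate 1 the count was 1 (H2BC7, 0.254%), and without 24 h replicate 1 it was 1 (H3C1, 0.2%). It was 2 with 24 h replicate 3 left out (H2AC16 and H2BC7, 0.25%). With 8 h replicate 3 left out it was 3 (H1-5, H2AC16 and H2BC7, 0.459%). With untreated replicate 1, untreated replicate 2 or 8 h replicate 2 left out, it was 6, 7 and 8 (3.49%, 1.43% and 1.56%). The F count of 5 was 0 when untreated replicate 3, 8 h replicate 1, 8 h replicate 3 or any 24 h array was left out, and 2 without untreated replicate 1. The 8 h count of 0 was 1 without untreated replicate 2, where 1.32% of all rows were called at 8 h. By other settings the 24 h count was 0 in a fit of only the untreated and 24 h arrays (0.0909% of all rows called). It was 14 with median centring (2.32%) and 17 with quantile normalization (2.54%). Without the 25% dimmest rows it was 12 of 42 genes (3.13% of the rows kept). Array weights gave 40, of which 2 were higher, but called 40.9% of all rows, and weights estimated gene by gene gave 24 with 8.58% of all rows called. Untreated replicate 2 was the lowest untreated array in 40 of the 50 genes, and over all rows its upper quartile was 9.28 against 9.54 and 9.49 on the other two. It had the lowest mean signal of the 9 arrays, 7.97, where the others lay between 8.05 and 8.14. Its part in the histone results was not tested beyond the values without it.

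Most of the 50 genes had a lower mean at 24 h, called or not. The 24 h mean was below the untreated mean in 44 of the 50 (88%), against 46.9% of all rows. At least 1.5-fold lower were 19 of the 50, against 207 of all 22011 rows. The median difference over the 50 was −0.45 on the log2 scale, against 0.02 over all rows. At 8 h it was −0.09, with 33 of the 50 (66%) below the untreated mean, against 53% of all rows. From 8 h to 24 h it was −0.26, with 42 (84%) below, against 42% of all rows. In 27 of the 50 all 3 arrays at 24 h lay below all 3 untreated arrays, against 8.75% of all rows. The same held for 11 of the 50 at 8 h, against 8.55%, and for 22 between 24 h and 8 h, against 6.4%. No gene of the 50 lay wholly above in any of these comparisons. RNA here comes from whole cultures, so fewer cells in S phase and less histone RNA per cell cannot be told apart.

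**Figure D1:**
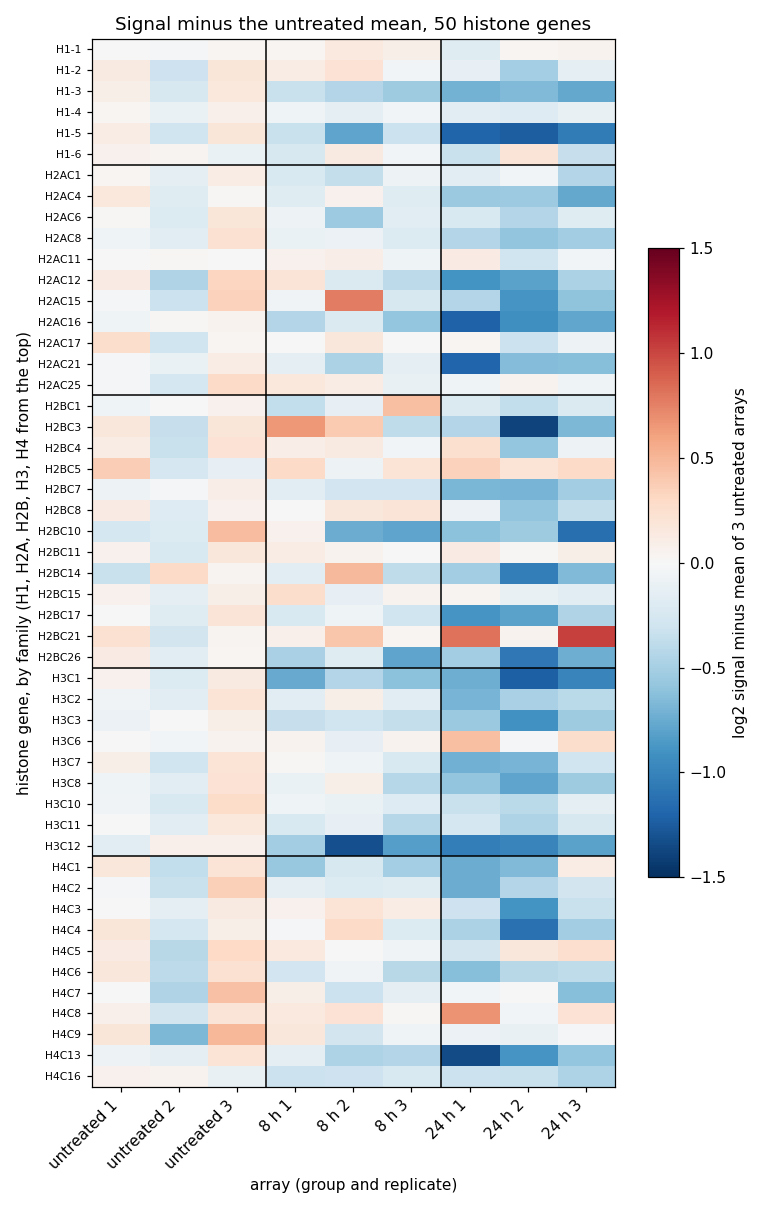
Heat map of the 50 histone genes (rows, by family) on the 9 arrays (columns, by group); colour is the log2 signal minus the gene's untreated mean. In 27 rows all 3 arrays at 24 h lie below all untreated arrays (8.75% of all measured rows), against 11 rows at 8 h (8.55%). Untreated replicate 2 is the lowest of its group in 40 of 50 rows.

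Both classes had lower values at 24 h, and the gap between linker and core genes depended on how a class was summarised. At 24 h the median difference was −0.21 over the 6 linker genes and −0.48 over the 44 core genes, while the means were −0.41 in both classes. The linker class includes the dim rows of H1-1 and H1-6: over linker genes above the median signal of all rows it was −0.49, against −0.53 over such core genes. At 8 h the medians were −0.07 for linker and −0.11 for core genes, and the core value was 0.01 without untreated replicate 3 and −0.23 without untreated replicate 2. Relative to the untreated mean, the linker median was −0.26, −0.35 and −0.25 on the 3 arrays at 24 h, and the core median was −0.44, −0.54 and −0.39. On the untreated arrays the linker medians were 0.07, −0.17 and 0.11 and the core medians 0.02, −0.20 and 0.16. The class medians of all 3 arrays at 24 h thus lay below those of all 3 untreated arrays in both classes. On the 8 h arrays the linker medians were −0.16, 0.00 and −0.04 and the core medians −0.07, −0.09 and −0.19, all above untreated replicate 2 and below the other untreated arrays. The difference between the classes was not tested.

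Among the core families, the median differences at 24 h were −0.52 for H2A, −0.34 for H2B, −0.57 for H3 and −0.43 for H4. All 11 H2A genes were below their untreated mean, as were 8 of 9 H3, 10 of 13 H2B and 9 of 11 H4 genes. All 3 arrays at 24 h lay below the untreated arrays in 6 of 11 H2A, 7 of 13 H2B, 7 of 9 H3 and 4 of 11 H4 genes, as in 3 of the 6 linker genes. Over all rows the share was 8.75%. At 8 h the family medians lay between −0.15 (H3) and 0.06 (H2B), and all 9 H3 genes were below their untreated mean. Of the 50 genes, 33 had a mean signal above the median of all rows, and their median difference at 24 h was −0.53, against −0.21 in the 17 below it. In a dim row a difference on the log2 scale can be held down by background signal, which was not tested.

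**Figure D2:**
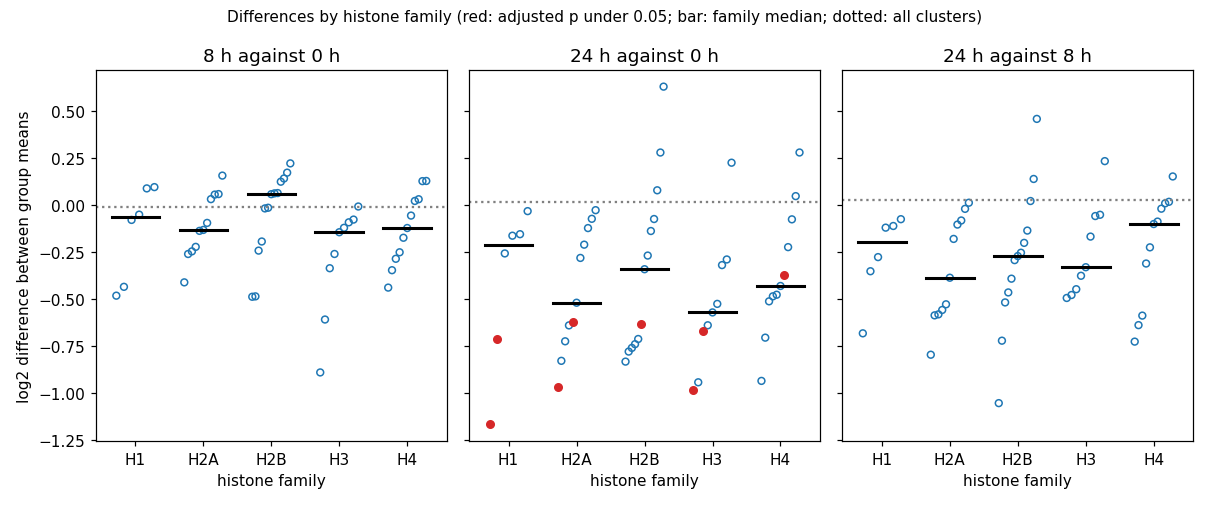
Log2 difference between group means for each histone gene (points), by family, for 8 h and 24 h against untreated cells and for 24 h against 8 h. Bars are family medians, the dotted line is the median of all rows and red points passed the limma test. The 24 h medians lie between −0.57 (H3) and −0.21 (H1), below the 8 h medians in all 5 families.

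H1-5, the linker histone H1.5, changed most of all 50 genes. Its log2 signal was 11.19, 10.79 and 11.26 on the untreated arrays, 10.75, 10.29 and 10.75 at 8 h, and 9.87, 9.84 and 10.03 at 24 h. The 3 groups did not overlap, with each later group wholly below the one before. The 24 h difference was −1.16 ± 0.16 (SE), a 2.24-fold fall (adjusted p = 0.022), and the 8 h difference was −0.48 (adjusted p = 0.22). H1-3, the linker histone H1.3, read 9.29, 8.96 and 9.36 in untreated cells, 8.87, 8.76 and 8.68 at 8 h, and 8.5, 8.54 and 8.43 at 24 h. These groups did not overlap either. Its 24 h difference was −0.71 ± 0.11 (SE), a 1.64-fold fall (adjusted p = 0.028), and its 8 h difference was −0.44 (adjusted p = 0.12). H1-5 missed the threshold in 5 of the 9 fits that left out 1 array and H1-3 in 6 of 9, both among them when untreated replicate 3, 8 h replicate 1 or any single 24 h array was left out. Over all alternatives the adjusted p reached 0.1 for H1-5 and 0.11 for H1-3.

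The other 4 linker genes did not pass the test. H1-4, the linker histone H1.4 and the linker row with the highest signal, read 14.03, 13.89 and 14.06 in untreated cells, 13.92, 13.86 and 13.96 at 8 h, and 13.83, 13.8 and 13.88 at 24 h. Its 24 h arrays lay narrowly below the untreated ones, and the difference was −0.16 (adjusted p = 0.24). H1-1, with the smallest linker difference, read 7.35, 7.34 and 7.39 untreated, 7.38, 7.51 and 7.45 at 8 h, and 7.17, 7.39 and 7.42 at 24 h. Its groups overlapped at both times, and the 24 h difference was −0.03 (adjusted p = 0.81). H1-2, which encodes H1.2, had a 24 h difference of −0.26 (adjusted p = 0.36) with overlapping groups. H1-6 encodes the testis linker histone H1t and had a dim row, with a mean of 5.83 and a 24 h difference of −0.16 (adjusted p = 0.55).

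To ask whether linker genes moved apart within the same RNA samples, all 15 pairs were compared as differences within each array. The test was a two-sided exact permutation test over the 1680 arrangements of the 9 arrays, whose smallest p is 0.0036, with Benjamini-Hochberg adjustment over the 15 pairs. These pairs were tested after the single genes had been seen, with H1-5 and H1-3 already known to be low. The gap between H1-4 and H1-5 widened from 2.91 in untreated cells to 3.32 at 8 h and 3.92 at 24 h (exact p = 0.0036, adjusted p = 0.027). The gap between H1-1 and H1-5 moved from −3.72 to −2.59 at 24 h (exact p = 0.0036, adjusted p = 0.027), and that between H1-3 and H1-4 from −4.79 to −5.35 (exact p = 0.0071, adjusted p = 0.036). These gaps on the log2 scale are changes in relative signal, not relative amounts, because the rows have different probes. The mean signal of H1-4 was 13.91, at percentile 99.7 of all rows, and that of H1-1 was 7.38, at percentile 36.6. Whether a row so bright or so dim shows a change in full was not tested. The other 12 pairs did not pass, among them H1-3 against H1-5, with a change of 0.45 at 24 h (exact p = 0.064, adjusted p = 0.12), and H1-2 against H1-5, with a change of 0.91 (exact p = 0.021, adjusted p = 0.064). No pair passed without 8 h replicate 1 or any single 24 h array, and 7 passed without 8 h replicate 2.

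**Figure D3:**
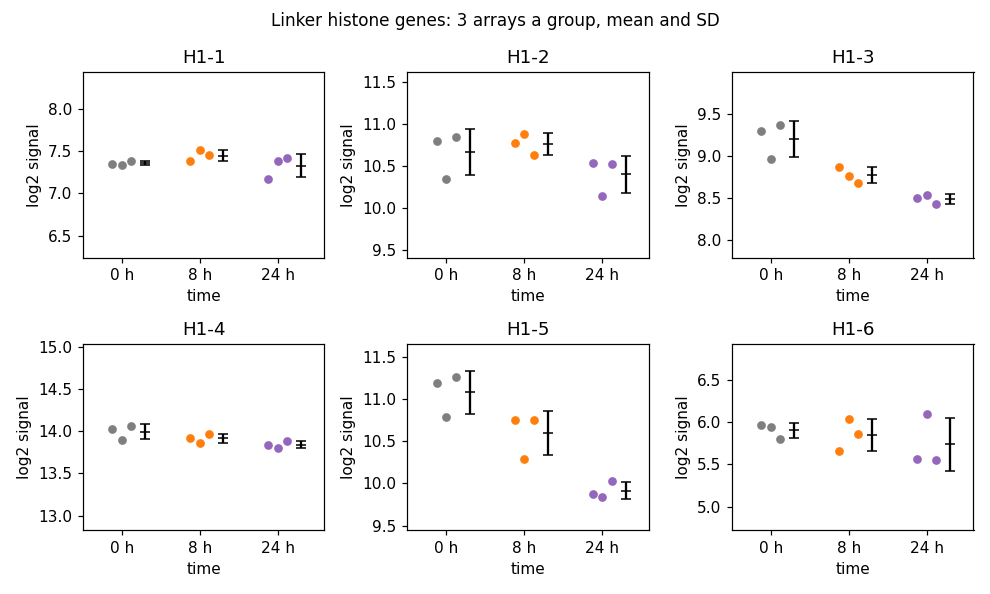
Log2 signal of the 6 linker H1 genes on each array (points) with group mean and SD (bars) at 0 h (untreated), 8 h and 24 h, each gene on its own axis of equal span. H1-5 and H1-3 step down with no overlap between groups, and H1-1, H1-2 and H1-6 overlap with untreated cells at 24 h.

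In the H2A family, whose proteins pair with H2B at the outside of the octamer, H2AC16 and H2AC4 fell at 24 h. H2AC16, also the H2A row with the highest signal, read 13.1, 13.18 and 13.22 in untreated cells, 12.73, 12.95 and 12.58 at 8 h, and 11.96, 12.25 and 12.38 at 24 h. The 3 groups were separate and in order, and the 24 h difference was −0.97 ± 0.13 (SE), a 1.96-fold fall (adjusted p = 0.019). H2AC4 read 6.99, 6.66 and 6.85 untreated, 6.66, 6.9 and 6.66 at 8 h, and 6.28, 6.29 and 6.07 at 24 h. Its 8 h arrays overlapped the untreated ones and its 24 h arrays lay below both, with a 24 h difference of −0.62 ± 0.11 (SE), a 1.54-fold fall (adjusted p = 0.042). The row of H2AC4 is dim. H2AC16 missed the threshold in 4 and H2AC4 in 7 of the 9 fits that left out 1 array, both among them when replicate 3 of untreated cells, 8 h replicate 1, 24 h replicate 1 or 24 h replicate 2 was left out.

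Just short of the threshold were H2AC21, with a 24 h difference of −0.83 (adjusted p = 0.052), and H2AC8, with −0.52 (adjusted p = 0.055), both with all 24 h arrays below the untreated ones. H2AC12 (−0.72) and H2AC15 (−0.64) were separate from untreated cells too, but had adjusted p of 0.15 and 0.24 with wider spread. H2AC1, a gene known for its expression in testis, and H2AC6, H2AC11, H2AC17 and H2AC25 had differences between −0.28 and −0.03 with overlapping groups. The smallest was in H2AC25, which read 8.15, 7.91 and 8.46 untreated, 8.33, 8.29 and 8.07 at 8 h, and 8.1, 8.23 and 8.11 at 24 h, so that its 3 groups covered the same range.

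In the H2B family 1 gene of 13 fell, H2BC7. It read 13.19, 13.23 and 13.36 in untreated cells, 13.1, 12.97 and 12.98 at 8 h, and 12.58, 12.56 and 12.74 at 24 h, with 3 separate groups in order. The 24 h difference was −0.63 ± 0.08 (SE), a 1.55-fold fall (adjusted p = 0.015), the smallest adjusted p of the 50 genes. It missed the threshold in 3 of the 9 fits that left out 1 array, namely when replicate 3 of untreated cells or replicates 1 or 2 at 24 h were absent, with an adjusted p of up to 0.074. H2BC14, the H2B row with the highest signal, read 12.98, 13.6 and 13.36 untreated, 13.15, 13.79 and 12.93 at 8 h, and 12.79, 12.27 and 12.65 at 24 h. Its 24 h arrays lay below the untreated ones, but the arrays varied widely and the difference of −0.74 did not pass (adjusted p = 0.18). The lowest H2B difference was in H2BC3, a very dim row that read 4.94, 4.43 and 4.95 untreated, 5.42, 5.17 and 4.39 at 8 h, and 4.33, 3.39 and 4.1 at 24 h. Its difference of −0.83 came with an SD of 0.49 at 24 h and an adjusted p of 0.21.

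H2BC17 (−0.71, adjusted p = 0.051) and H2BC26 (−0.78, adjusted p = 0.084) were separate from untreated cells at 24 h without passing, as were H2BC1 (−0.27) and H2BC10 (−0.76), which had dim rows. H2BC4, H2BC8 and H2BC15 had differences between −0.34 and −0.07 with overlapping groups. The other 3 H2B genes had higher means at 24 h than in untreated cells, none of them past the threshold. H2BC21, a gene known to give polyadenylated messages outside S phase, read 7.79, 7.28 and 7.6 untreated, 7.63, 7.97 and 7.59 at 8 h, and 8.37, 7.61 and 8.58 at 24 h. The 24 h arrays 1 and 3 lay above every untreated array and array 2 did not, and the difference of 0.63 had an adjusted p of 0.22. H2BC5 (0.28, adjusted p = 0.34) and H2BC11 (0.08, adjusted p = 0.65) overlapped with untreated cells.

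In the H3 family, whose proteins form the centre of the octamer with H4, H3C1 and H3C3 fell at 24 h. H3C1 read 9.24, 8.98 and 9.31 in untreated cells, 8.41, 8.73 and 8.55 at 8 h, and 8.44, 7.95 and 8.19 at 24 h. Both treated groups lay below the untreated arrays and overlapped each other. The differences were −0.61 at 8 h (adjusted p = 0.11) and −0.99 ± 0.15 (SE) at 24 h, a 1.98-fold fall (adjusted p = 0.026). H3C3 read 12.77, 12.85 and 12.94 untreated, 12.5, 12.55 and 12.5 at 8 h, and 12.3, 11.94 and 12.32 at 24 h, in 3 separate groups. Its 24 h difference was −0.67 ± 0.11 (SE), a 1.59-fold fall (adjusted p = 0.030). H3C1 missed the threshold in 5 and H3C3 in 7 of the 9 fits that left out 1 array, both among them when replicate 3 of untreated cells, replicates 1 or 3 at 8 h, or replicates 2 or 3 at 24 h were left out.

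H3C12 had the lowest 8 h difference of the 50 genes. It read 10.22, 10.45 and 10.45 untreated, 9.85, 9.06 and 9.55 at 8 h, and 9.33, 9.39 and 9.57 at 24 h. All treated arrays lay below the untreated ones and the times overlapped, with differences of −0.89 at 8 h (adjusted p = 0.077) and −0.94 at 24 h (adjusted p = 0.051). H3C2, the H3 row with the highest signal, read 13.12, 13.01 and 13.37 untreated, 13.01, 13.26 and 12.99 at 8 h, and 12.47, 12.68 and 12.76 at 24 h. Its 24 h arrays lay below the others, with a difference of −0.53 (adjusted p = 0.084). H3C7 (−0.57), H3C8 (−0.64) and H3C11 (−0.32) were separate from untreated cells at 24 h without passing, and H3C10 (−0.29) overlapped. H3C6 had the highest H3 difference, reading 6.57, 6.53 and 6.62 untreated, 6.62, 6.45 and 6.62 at 8 h, and 7.02, 6.54 and 6.83 at 24 h. Array 2 at 24 h stayed within the untreated range, and the difference of 0.22 did not pass (adjusted p = 0.30).

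In the H4 family only H4C16, the gene outside the histone clusters on chromosome 12, passed the test. It read 7.83, 7.82 and 7.66 in untreated cells, 7.44, 7.46 and 7.54 at 8 h, and 7.45, 7.43 and 7.3 at 24 h. Both treated groups lay below the untreated arrays and overlapped each other. The 24 h difference was −0.37 ± 0.07 (SE), a 1.30-fold fall (adjusted p = 0.049), and it missed the threshold in each of the 9 fits that left out 1 array, with an adjusted p of up to 0.17. H4C13 had both the highest signal and the lowest difference of the family, reading 12.44, 12.38 and 12.71 untreated, 12.37, 12.04 and 12.07 at 8 h, and 11.17, 11.62 and 11.93 at 24 h. The groups were separate, but the 24 h arrays had an SD of 0.38, and the difference of −0.93 had an adjusted p of 0.059. Size and test thus ran in different orders in this family: the fall of H4C13 was the larger and that of H4C16 had the smaller spread.

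H4C3 (−0.51) and H4C4 (−0.71) were separate from untreated cells at 24 h, with adjusted p of 0.15 and 0.14. H4C1 (−0.43), H4C2 (−0.49), H4C6 (−0.48), H4C7 (−0.22) and H4C9 (−0.08) overlapped with untreated cells. The highest H4 difference was in H4C8, which read 10.04, 9.68 and 10.16 untreated, 10.12, 10.18 and 9.98 at 8 h, and 10.63, 9.92 and 10.18 at 24 h. Its difference of 0.28 did not pass (adjusted p = 0.40) and array 2 at 24 h lay within the untreated range. H4C5 had a difference of 0.05 (adjusted p = 0.90). The 6 genes with a higher mean at 24 h were thus H2BC5, H2BC11, H2BC21, H3C6, H4C5 and H4C8, and the groups overlapped in each.

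**Figure D4:**
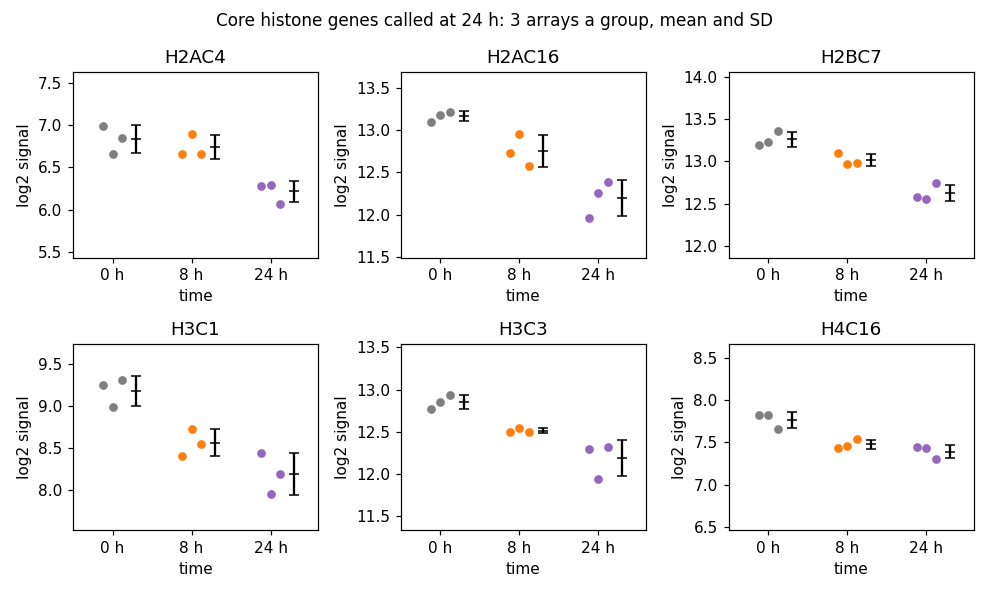
Log2 signal of the 6 core histone genes that passed the limma test at 24 h, on each array (points) with group mean and SD (bars) at 0 h (untreated), 8 h and 24 h, each gene on its own axis of equal span. In all 6 the 24 h arrays lie below the untreated ones, and in H2AC16, H2BC7 and H3C3 the 8 h arrays lie between them.

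Many H2A and H2B genes lie head to head and share 1 promoter region. In 7 such pairs, with starts 194 to 248 bases apart in the RefSeq promoter table, both genes were among the 50. The within-array difference of each pair was tested over the 3 time points as for the linker genes, and 0 of 7 passed after adjustment over the 7. At an unadjusted exact p below 0.05 there were 2. In H2AC17 and H2BC17 the gene differences at 24 h were −0.12 and −0.71 (exact p = 0.011, adjusted p = 0.075), and in H2AC25 and H2BC26 they were −0.03 and −0.78 (exact p = 0.029, adjusted p = 0.1). In H2AC15 and H2BC15 they were −0.64 and −0.07 (exact p = 0.2). In these 3 pairs the within-array differences at 24 h did not overlap with those of untreated cells, and in the other 4 they did. A single pair passed without untreated replicate 1.

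Among listed genes of histone variants outside the 50, which can replace the replicated histones at particular sites, 12 of 18 had a row of their own. None was called at 8 h, and 2 fell at 24 h. Over all rows, 0.595% were called at 8 h and 0.791% were called lower at 24 h. H2AX, the H2A variant phosphorylated at DNA breaks, read 10.04, 10.29 and 10.18 in untreated cells and 9.79, 9.79 and 9.84 at 24 h, without overlap, a difference of −0.37 (adjusted p = 0.049). It missed the threshold in 8 of the 9 fits that left out 1 array. CENPA, the H3 variant of centromeres, read 10.3, 9.99 and 10.27 untreated, 10.33, 10.27 and 10.22 at 8 h, and 9.57, 9.4 and 9.56 at 24 h. It was level with untreated cells at 8 h and below both groups at 24 h, with a 24 h difference of −0.68 (adjusted p = 0.022) and a fall from 8 h of −0.76 (adjusted p = 0.025). H2AZ1, an H2A variant of promoters, had a 24 h difference of −0.43 (adjusted p = 0.080). The median over the 12 was −0.16 at 24 h, against −0.45 over the 50 replication-dependent genes. Of the 12, 6 were above the median signal on every array, and how far dim rows set this gap was not tested.

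Of the factors that transcribe these genes or process the ends of their messages, 15 of 20 listed had a row, and 1 was called. Over all rows, 0.595% were called at 8 h and 1.62% at 24 h. HINFP, the zinc finger protein that binds H4 promoters, read 9, 8.94 and 8.94 in untreated cells, 9.42, 9.44 and 9.34 at 8 h, and 9.4, 9.29 and 9.34 at 24 h. All 6 treated arrays lay above the untreated ones. It rose by 0.44 ± 0.06 (SE) at 8 h (adjusted p = 0.021) and by 0.38 at 24 h (adjusted p = 0.028), and neither call held after quantile normalization (adjusted p of 0.052 and 0.13). The 8 h call was also lost in 6 of the 9 fits that left out 1 array, untreated replicate 3 and each 8 h array among them. SLBP had differences of −0.36 at 8 h (adjusted p = 0.31) and −0.19 at 24 h (adjusted p = 0.45). CASP8AP2, known as FLASH in histone message processing, had 0.31 at 24 h (adjusted p = 0.32). NPAT and POU2F1 had no row of their own with a single symbol. The median over the 15 was −0.01 at 8 h and 0.09 at 24 h.

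Of the chaperones that carry histones to DNA, 23 of 25 listed had a row. None was called at 8 h and 2 fell at 24 h, where 0.595% of all rows were called at 8 h and 0.791% were called lower at 24 h. ASF1B, which hands H3 and H4 to the assembly machinery, read 11.55, 11.61 and 11.53 in untreated cells, 11.28, 10.98 and 11.22 at 8 h, and 10.37, 10.65 and 10.74 at 24 h. Its groups were separate and in order, and the 24 h difference was −0.98 (adjusted p = 0.014). HJURP, the chaperone of CENPA, read 10, 9.6 and 10.04 untreated and 8.94, 9.04 and 9.22 at 24 h, without overlap, a difference of −0.82 (adjusted p = 0.028). CHAF1A and CHAF1B, subunits of the replication-coupled assembly factor CAF-1, had 24 h differences of −0.40 (adjusted p = 0.068) and −0.58 (adjusted p = 0.067) and 8 h differences of −0.35 and −0.61. In both, all 6 treated arrays lay below the untreated ones.

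**Figure D5:**
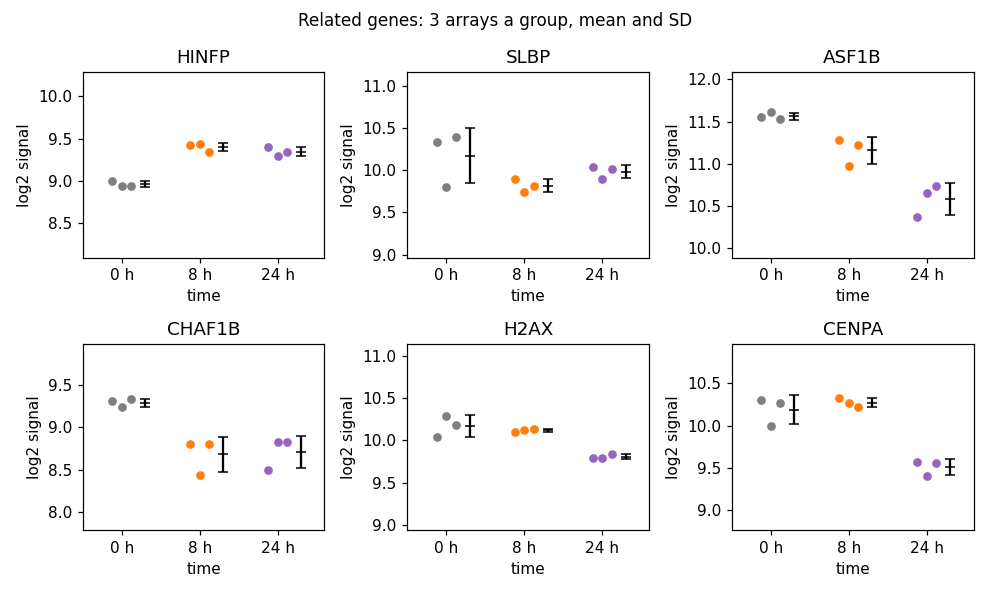
Log2 signal of HINFP, SLBP, ASF1B, CHAF1B, H2AX and CENPA on each array (points) with group mean and SD (bars) at 0 h (untreated), 8 h and 24 h, each gene on its own axis of equal span. HINFP is higher and CHAF1B lower on all 6 treated arrays, ASF1B steps down at each time, and H2AX and CENPA are lower at 24 h alone.

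Genes of S-phase entry and DNA replication were measured beside the histone genes. Of 25 listed, 22 had a row, 2 fell at 8 h, 7 fell at 24 h and none rose. Over all rows, 0.595% were called at 8 h and 0.791% were called lower at 24 h. The 2 at 8 h were CCNE2, a cyclin of S-phase entry, and CDC6, which loads the replicative helicase. CCNE2 read 8.82, 8.21 and 8.47 untreated, 7.4, 7.15 and 7.44 at 8 h, and 7.84, 8 and 7.98 at 24 h. It was lowest at 8 h, with a difference of −1.17 (adjusted p = 0.019), and its 24 h difference was −0.56 (adjusted p = 0.11). CDC6 had differences of −1.03 at 8 h (adjusted p = 0.018) and −0.74 at 24 h (adjusted p = 0.038). The 8 h call was lost in 6 of the 9 fits that left out 1 array for CCNE2 and in 5 of 9 for CDC6, both among them when untreated replicate 3 or any single 8 h array was absent, with adjusted p of up to 0.11 and 0.095. The median over the 22 was −0.38 at 8 h and −0.33 at 24 h, where the 50 histone genes had −0.09 and −0.45. The others that fell at 24 h were CCNA2 (−0.92), CDC45 (−0.73), GINS1 (−0.77), RRM2 (−0.99), CDK2 and POLE. CCNA2 and GINS1 lost the 24 h call in 6 of the 9 fits that left out 1 array, and CDC45 and RRM2 in 5 of 9.

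Of 16 listed genes of mitosis, 15 had a row, 10 fell at 24 h, 8 of the 15 fell from 8 h to 24 h and none was called at 8 h. Over all rows, 0.791% were called lower at 24 h, 0.327% were called from 8 h to 24 h and 0.595% at 8 h. PLK1, a mitotic kinase, read 11.73, 11.7 and 11.54 untreated, 11.75, 11.55 and 11.75 at 8 h, and 10.11, 10.31 and 10.36 at 24 h. It was level at 8 h and more than 1 log2 unit lower at 24 h, with a difference of −1.40 (adjusted p = 0.0014). MKI67, the proliferation antigen Ki-67, had 24 h and 8 h differences of −1.29 (adjusted p = 0.002) and −0.10 (adjusted p = 0.65). The median over the 15 was 0.06 at 8 h and −0.93 at 24 h. AURKA and AURKB, the Aurora kinases, MKI67 and PLK1 kept the 24 h call in all 9 fits that left out 1 array. CENPA, HINFP, HJURP and CDC6 each lost it in 6 of 9, ASF1B in 2 of 9 and CDC20 in 1 of 9, all among them when untreated replicate 3 was absent. Whether the histone differences follow from these changes was not tested.

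The label of a B-lymphoblastoid line was checked against markers. All 11 B cell markers with a row were above the array's median signal on every array, and BLK rose at 24 h by 0.44 (adjusted p = 0.038). Of 24 markers of T cells, myeloid cells, erythroid cells, fibroblasts and epithelium, 2 were above the median on every array (COL1A1 and KRT8), and none was called in any comparison by limma. Array means lay between 7.97 and 8.14, and the lowest correlation of arrays within a group was 0.979 over all rows. The SD of a histone gene was larger than that of a typical row, with medians of 0.20, 0.15 and 0.22 in untreated, 8 h and 24 h cells, against 0.15, 0.09 and 0.09 over all rows.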

How the data were processed

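Gene expression was measured on 9 Affymetrix exon arrays. The deposited values are log2 gene-level RMA signals with sketch-quantile normalization from Affymetrix Expression Console, per the labels and the series' design text; the authors' genome build is not given in the sources used here. Probes were named from GEO's platform annotation: 14432 of the 22011 rows carry 1 symbol, 2408 several and 5171 none. The design text describes triplicate cultures, so p-values measure the spread between cultures of 1 line. The 9 arrays limit the precision.

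Rows were fitted in R 4.3.3 with limma 3.58.1, with 1 mean per group over all 9 arrays, and p-values were adjusted over all rows (Benjamini-Hochberg); a gene was called at an adjusted p below 0.05. The fit was tested on simulated data. The histone genes and the related gene lists were chosen with earlier results of these data known, so they got no test as lists. All 50 genes may be named; array values are given for called genes and for the brightest, lowest and highest gene of each family. In the related lists, called genes are named, up to 6 per list by smallest adjusted p, with a fixed set of key genes. Alternatives covered the scaling, a filter on dim rows, the spread model, array weights, the threshold, a replicate block and leaving out each array. The main fit did not pair arrays by replicate number. With group means removed, same-numbered untreated and 24 h arrays correlated at 0.394, 0.376 and 0.0561 for replicates 1, 2 and 3. Whether the numbers mark paired cultures cannot be told from these values.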

Additional observations from a re-analysis of the deposited data

Results flagged for a closer look

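For 9 of the related genes the change at 24 h differed from that at 8 h. The test was that of limma for 24 h against 8 h over all 9 arrays, by which 0.327% of all rows were called. The shared untreated arrays cancel from this difference but still enter the estimate of the spread. All 9 genes act in mitosis or at the centromere, and 7 of them fall under the rule for named genes. The log2 difference of 24 h minus 8 h was −0.911 in AURKA (adjusted p = 0.0035), −1.07 in AURKB (adjusted p = 0.0061), −1.24 in CDC20 (adjusted p = 0.022), −0.763 in CENPA (adjusted p = 0.025), −1.2 in MKI67 (adjusted p = 0.0061), −1.42 in PLK1 (adjusted p = 0.0025) and −1.02 in TOP2A (adjusted p = 0.017). The other two, named here after their values were seen, were CCNB2 at −1.27 (adjusted p = 0.017) and NUSAP1 at −0.79 (adjusted p = 0.025). At 8 h the first 7 genes differed from untreated cells by between −0.263 (AURKB) and 0.186 (AURKA), none past the threshold. AURKA and PLK1 kept the call from 8 h to 24 h in each of the 9 fits that left out 1 array, AURKB and MKI67 lost it only without 8 h replicate 1, and CDC20, TOP2A and CENPA lost it in 5, 5 and 7 of 9. No histone gene of the 50 met the same test.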

How the results depend on the processing

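With other scaling the counts of called histone genes were higher: quantile normalization gave 3 at 8 h, 17 at 24 h, 1 from 8 h to 24 h and 10 by the F-test, and median centring 14 at 24 h and 10 by the F-test, all lower. Quantile normalization called 1.77% of all rows at 8 h, 2.54% at 24 h and 0.495% from 8 h to 24 h. Median centring called 2.32% at 24 h. These scalings also moved the share of lower calls among all rows at 24 h from 48.7% to 61.4% and 60%. Leaving out the 25% dimmest rows kept 42 of the 50 genes. It gave 1 at 8 h (1.83% of the rows kept), 12 at 24 h (3.13%) and 7 by the F-test. A spread model that varied with signal gave 10 at 24 h, with 1.7% of all rows called, and 6 by the F-test. Array weights gave 29, 40, 10 and 40, of which 1 at 8 h and 2 at 24 h were higher. That fit stopped before it converged and put a weight of 29.8 on untreated replicate 3. It called 43.6% of all rows at 8 h, 40.9% at 24 h and 6.89% from 8 h to 24 h. Weights estimated gene by gene, added after the data were seen, gave 7, 24, 8 and 20. With them 7.74% of all rows were called at 8 h, 8.58% at 24 h and 6.02% from 8 h to 24 h. A fit of only the groups compared gave 0 at 24 h, as did an adjusted p below 0.01, where 0.0909% and 0.109% of all rows were called. Leaving out 1 array gave 0 to 1 at 8 h, 0 to 8 at 24 h and 0 to 5 by the F-test. The share of all rows called in these fits ran from 0.0409% to 2.97% at 8 h and from 0.0954% to 3.49% at 24 h. Same-numbered arrays correlated between −0.137 and 0.394, over 0.1 in 3 of 9 pairs. The own number was the best match in 8 of 18 comparisons. With the replicate block, 6 genes were called at 24 h (1.72% of all rows) and 1 by the F-test. The share of all rows called by the F-test is not given for these alternatives.

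The linker mean at 24 h was −0.414 in place of the median, and linker genes above the median signal had −0.257, −0.485 and −0.315 at 8 h, 24 h and from 8 h to 24 h. Without 1 array the core median ran from −0.23 to 0.0124 at 8 h and from −0.6 to −0.385 at 24 h. Linker pairs that passed were 5 after quantile normalization and 0 to 7 without 1 array, and divergent pairs 0 to 1. None of the 8 called histone genes changed direction under any of these alternatives, but for most of them this was fixed in advance. In each of the 8 all 24 h arrays lay below all untreated arrays, so leaving out 1 array could not reverse the sign. The replicate block, the spread model, the filter, the threshold and the fit of only the groups compared left the difference itself unchanged.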
